A study of Mus musculus with 9 samples.

Results

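Collagen chain genes were taken as the 44 protein-coding genes with a symbol of the form Col, a type number, a and a chain number, among 54752 genes in the count table. They were measured by RNA-seq in 9 libraries of B16F10, a mouse melanoma cell line, kept in DMEM with 10% FBS. Guide 1 (Tada2bsg1) and guide 2 (Tada2bsg2) gave 3 libraries each with the genotype Tada2b knockout, and GFPsg, a guide named for GFP, gave 3 libraries with the genotype WT. The comparison asks which collagen chain mRNAs differ when Tada2b, which encodes a subunit of the SAGA coactivator that works with its histone acetyltransferase, is targeted. Whether the cells of a guide were a clone or a pool is not given in the sources used here, and neither is whether replicates were separate cultures, so that p-values measure only the spread between these libraries, which may be technical.

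A collagen molecule is a triple helix of 3 alpha chains. In types such as I, IV, V, VI and IX the helix joins different chains, each from its own gene, so that the supply of every partner bears on which molecules can form. Fibrillar collagens build the cables of connective tissue, type IV builds the sheet of basement membranes, and smaller classes decorate fibrils, anchor basement membranes or span the cell membrane. In melanoma, collagen comes from stromal fibroblasts and, in some cell states, from the tumour cells themselves.

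Reads per library totalled 73.5 M to 76.9 M with guide 1, 70.8 M to 76.2 M with guide 2 and 70.6 M to 75.3 M in GFPsg (M, 1e6 reads). Tada2b mRNA itself was counted at 32.3, 33.3 and 32.7 CPM with guide 1 and 29.0, 26.0 and 25.9 CPM with guide 2, against 28.0, 25.2 and 26.6 CPM in GFPsg (CPM, counts per 1e6 reads on TMM-scaled library sizes). It was called higher with guide 1 (log2 change 0.30, edgeR adjusted p = 2.13e-04) and not called with guide 2 (0.02, edgeR adjusted p = 0.806), and the guides differed (−0.28 for guide 2 against guide 1, edgeR adjusted p = 0.00671). With neither guide was it called lower, so its mRNA gives no check of a knockout, and the 6 libraries go by their label here. Read counts do not show whether the protein was lost. Melanocyte markers, 7 in number, were present in every library and had sums between 4973 and 5210 CPM for guide 1 and between 7032 and 7274 CPM for guide 2, against 20320 to 21120 CPM in GFPsg. Of 10 fibroblast and mural cell markers, Dcn, Lum, Thy1, Acta2 and Rgs5 stayed under 10 reads in every library. The summed level of the 10 was between 39.9 and 43.0 CPM for guide 1 and between 41.9 and 45.6 CPM for guide 2, against 49.1 to 50.4 CPM in GFPsg. Its markers did not move one way, since of the 4 tested Pdgfrb (log2 change 1.45, edgeR adjusted p = 6.88e-10) and Postn (0.70, 6.89e-06) rose and Pdgfra was not called (−0.04, 0.869). Pdpn, which made up most of the sum, fell (−0.79, 5.36e-10), with a mean of 22.7 CPM for guide 1 and 23.6 CPM for guide 2, against 39.9 CPM in GFPsg. Of 7 leukocyte markers Ptprc and Itgam had 0 reads in every library, and the sum of the 7 was 5.51 to 6.59 CPM over the libraries of both guides, against 2.59 to 2.97 CPM in GFPsg. The 2 that were tested were called higher, Cd68 (log2 change 1.095, edgeR adjusted p = 1.44e-07) and Lyz2 (1.08, 4.79e-06). Chondrocyte markers (4, with Acan and Matn1 under 10 reads in every library) summed to 7.08 to 9.14 CPM over both guides, against 3.99 to 4.23 CPM in GFPsg. Only Matn3 of these was tested, and it was called higher (log2 change 0.99, edgeR adjusted p = 1.31e-07). All 6 endothelial markers and 4 of 5 epithelial markers were too low to be tested. The remaining epithelial marker, Cdh1, was called lower (log2 change −2.03, edgeR adjusted p = 8.18e-06). The part of these marker differences in the collagen changes was not tested.

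The stretches just upstream of 4 members show the start regions that the changes below concern, 3 of genes that rose (Col5a1, Col7a1 and Col8a1) and 1 of a gene that fell (Col15a1). Each is the 250 bases before the RefSeq start site in GRCm38.p6, the build also called mm10, 5′ to 3′ on the strand of the gene, and overlaps no annotated exon. Capitals mark the GC box GGGCGG and the CCAAT box CCAAT on either strand, so that CCGCCC and ATTGG are the same boxes read from the other strand.
Col5a1: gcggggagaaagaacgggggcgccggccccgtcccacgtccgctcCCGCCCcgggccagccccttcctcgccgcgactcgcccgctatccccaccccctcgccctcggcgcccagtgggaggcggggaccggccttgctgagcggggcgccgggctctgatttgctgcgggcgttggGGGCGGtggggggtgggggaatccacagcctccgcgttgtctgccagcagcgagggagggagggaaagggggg
Col7a1: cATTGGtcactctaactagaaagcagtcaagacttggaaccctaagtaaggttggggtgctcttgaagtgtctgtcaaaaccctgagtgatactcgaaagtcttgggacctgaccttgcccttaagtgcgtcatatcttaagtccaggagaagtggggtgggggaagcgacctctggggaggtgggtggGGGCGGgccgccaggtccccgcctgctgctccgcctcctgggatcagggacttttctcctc
Col8a1: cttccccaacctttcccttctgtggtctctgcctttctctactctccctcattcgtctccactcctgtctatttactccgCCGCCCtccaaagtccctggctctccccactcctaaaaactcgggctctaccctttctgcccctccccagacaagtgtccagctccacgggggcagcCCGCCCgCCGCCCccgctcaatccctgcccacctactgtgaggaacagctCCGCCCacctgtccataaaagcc
Col15a1: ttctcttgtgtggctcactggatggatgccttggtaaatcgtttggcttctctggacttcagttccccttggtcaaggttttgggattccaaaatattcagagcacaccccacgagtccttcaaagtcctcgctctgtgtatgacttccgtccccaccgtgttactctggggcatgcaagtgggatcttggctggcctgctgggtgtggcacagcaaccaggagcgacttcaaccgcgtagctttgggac
The windows lie at chr2:27886175-27886424 (plus strand, Col5a1), chr9:108953336-108953585 (plus strand, Col7a1), chr16:57754738-57754987 (minus strand, Col8a1) and chr4:47207762-47208011 (plus strand, Col15a1). Col8a1 held 4 GC boxes, Col5a1 held 2 and Col7a1 held 1 with 1 CCAAT box, while the window of Col15a1 held neither. The windows of the genes that rose end at the gene start given below. That of Col15a1 ends upstream of its own (47208161), so the bases just before that start are not in it. Of all 32536 windows of this length over all genes, not limited to those free of exons, 33.0% held a GC box and 33.8% a CCAAT box. The table of windows covered 35 of the 44 members, some of whose windows overlap annotated exons. Among members called higher with a window, 9 of 12 held a CCAAT box and 9 of 12 a GC box, and among those called lower 2 of 10 and 4 of 10 did. A member with 2 windows was counted if either held the letters sought, whereas the shares over all genes are per window. The share of G and C was 76.4% in the window of Col5a1, 56.4% in Col7a1, 60.8% in Col8a1 and 53.6% in Col15a1, against a median of 52.4% over all windows. TATAAA was found in 12.3% of all windows, in 2 of the 12 and in 2 of the 10. CATTCC, the core of TEAD sites, was found in 12.6% of all windows, in 2 of the 12 and 1 of the 10, and TGANTCA, the AP-1 site, in 6.73%, in 0 and in 1. CACGTG was found in 6.04% of all windows and in no member's window, and CATGTG in 12.3%, in 1 of the 12 and in 1 of the 10. These letters are a description of the windows, not sites of binding.

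Collagen chain genes changed in both directions in the libraries labelled knockout, and 4 of them, Col1a1, Col8a1, Col5a1 and Col12a1, came to hold most collagen reads. Of the 44 members 30 passed the filter on low counts, and in the comparison of both guides with GFPsg 15 of the 30 were called higher, 11 lower and 4 were not called (edgeR quasi-likelihood test, Benjamini-Hochberg adjusted p under 0.05). Over all 17931 genes tested, 51.0% were called in that comparison, 24.7% higher and 26.3% lower. A rise of 2-fold or more was called for 12 members and a fall of that size for 4, against 6.88% and 4.33% of all genes tested. The median log2 change was 0.69 over the 30 members and −0.02 over all genes tested. With library size alone in place of TMM scaling 15 members were called higher and 10 lower, while the share of all called genes that were higher moved to 63.3%, against 48.4% with TMM, and the median change of all genes to 0.07. Col3a1, Col6a5 and Col18a1 passed the filter only through libraries labelled knockout and Col11a1 only through GFPsg, so their differences follow in part from the filter. Col6a5 passed only through the libraries of guide 2. The members that were not tested, 14 in number, had at most 10 reads in any library, and Col6a2 and Col13a1 had 0 reads in every library, which allows up to 0.038 to 0.045 CPM.

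**Figure D1:**
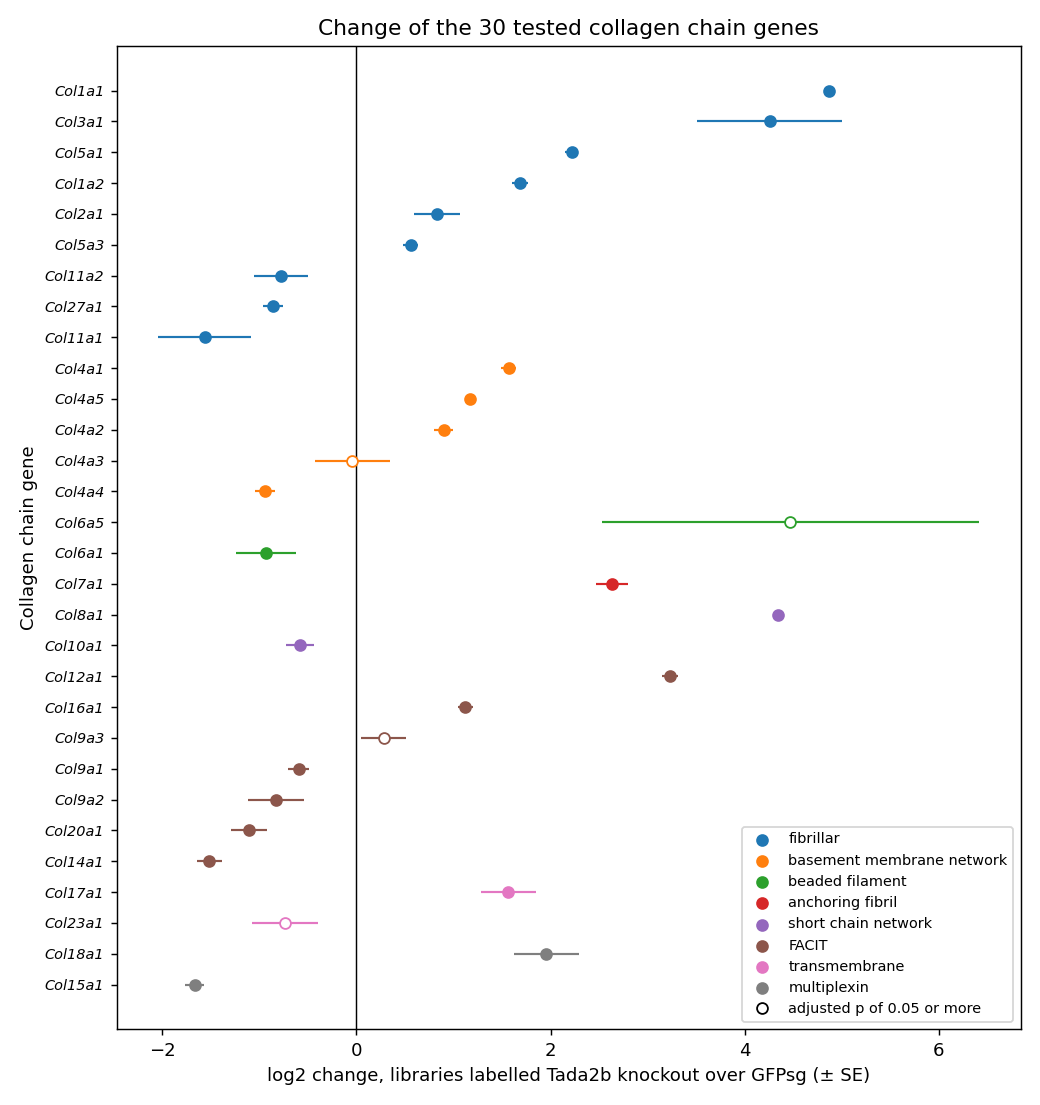
Log2 change of the 30 tested collagen chain genes in the libraries labelled knockout over GFPsg (x axis) by gene (y axis), with bars for the standard error, colours for the structural class and open circles for adjusted p of 0.05 or more. Col1a1 (4.87), Col8a1 (4.35), Col3a1 (4.26) and Col12a1 (3.23) lie far to the right among the genes called, as does Col6a5 (4.47), which was not called, and Col15a1 (−1.67), Col11a1 (−1.56) and Col14a1 (−1.52) farthest to the left.

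All collagen chain reads together made up 701 to 747 reads per 1e6 counts with guide 1 and 611 to 683 with guide 2, against 104 to 118 in GFPsg, with no overlap between the libraries labelled knockout and GFPsg. The mean over the 6 libraries labelled knockout was 6.17 times that of GFPsg. This rise was carried by few genes. Without Col1a1 the ratio was 4.48, and without Col1a1, Col8a1, Col5a1 and Col12a1, left out together after the data were seen, it was 1.61. These 4 genes held 84.8% ± 0.53 of collagen reads with guide 1 and 83.0% ± 0.45 with guide 2, against 38.3% ± 0.94 in GFPsg (mean ± SD, n = 3 each). In bulk RNA, more cells that express a gene and more RNA per cell cannot be told apart.

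Levels between genes were compared as reads per kb of the principal transcript. On that scale Col1a1 and Col8a1 were above every other chain with each guide, at 33.3% and 34.8% of collagen chain reads per kb with guide 1 and 33.5% and 33.3% with guide 2, against 6.64% and 9.75% in GFPsg. In GFPsg the chains were spread more evenly, with Col5a1 (13.6%), Col4a5 (13.5%), Col8a1 (9.75%) and Col15a1 (7.02%) at the top. Col15a1 held 0.30% with guide 1 and 0.48% with guide 2, against 7.02% in GFPsg.

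**Figure D2:**
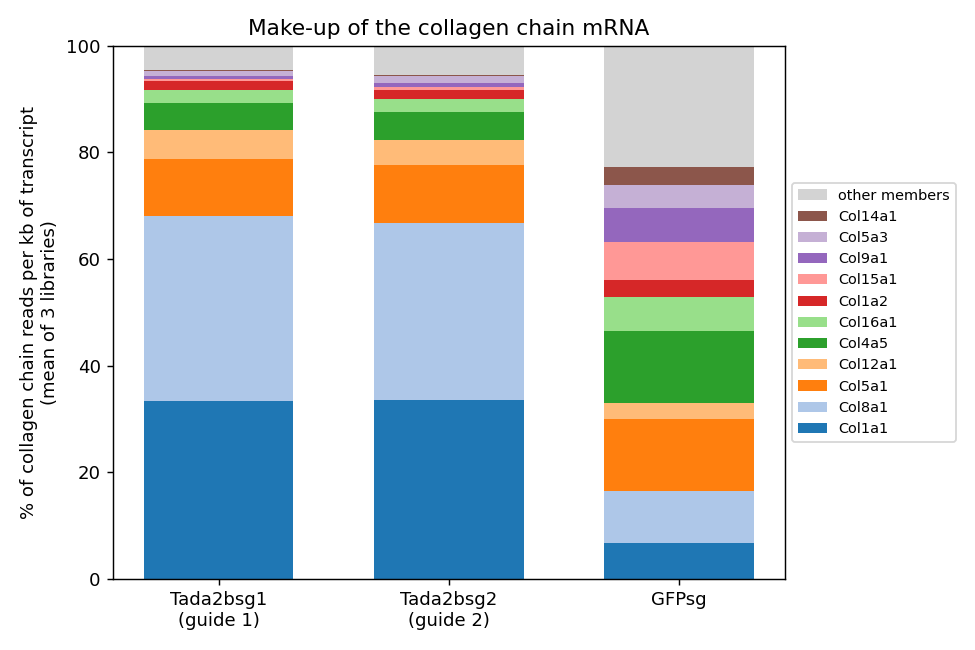
Share of each chain in the collagen chain reads per kb of principal transcript (y axis, percent, mean of 3 libraries) with guide 1, guide 2 and in GFPsg (x axis), stacked to the whole. Col1a1 and Col8a1 fill the lower part of both guide bars, at 33.3% to 34.8% each, while in GFPsg they hold 6.64% and 9.75%.

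Fibrillar chains, which self-assemble into the banded fibrils of skin, tendon and bone, were tested for 9 of 11 genes, of which 6 were called higher and 3 lower. Col1a1 encodes the chain of which type I collagen usually has a pair (ENSMUSG00000001506, chromosome 11, 94936224 to 94953042, mm10). It stood at 231, 220 and 225 CPM with guide 1 and at 220, 198 and 188 CPM with guide 2, against 7.15, 7.26 and 7.41 CPM in GFPsg. Every library labelled knockout was far above every GFPsg library, a 29.3-fold difference (log2 change 4.87 ± 0.06, SE; edgeR adjusted p = 1.18e-18). Col1a2, its partner in type I collagen (ENSMUSG00000029661, chromosome 6, 4504814 to 4541544), stood at 11.0, 10.7 and 11.2 CPM with guide 1 and 9.47, 9.23 and 9.32 CPM with guide 2, against 3.03, 2.80 and 3.62 CPM in GFPsg. It rose 3.21-fold (1.68 ± 0.08; edgeR adjusted p = 1.18e-11), again with no overlap.

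Col5a1 encodes the chain of type V collagen that starts fibrils and limits their width (ENSMUSG00000026837, chromosome 2, 27886425 to 28039514). It stood at 107, 99.3 and 102 CPM with guide 1 and 103, 89.0 and 89.6 CPM with guide 2, against 23.4, 19.0 and 20.8 CPM in GFPsg. The groups were apart, and the change was 4.66-fold (2.22 ± 0.07; edgeR adjusted p = 1.78e-14). Col5a2, the usual partner of Col5a1, was close to absent, with 0 to 2 reads in every library of all 3 groups. Col5a3, a less common chain of type V, rose 1.47-fold, with means of 6.96 ± 0.23 CPM for guide 1 and 7.27 ± 0.53 CPM for guide 2, against 4.83 ± 0.47 CPM in GFPsg (mean ± SD, n = 3 each; edgeR adjusted p = 1.58e-05).

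Col3a1, the type III chain that often lies in fibrils with type I, was found in 26, 18 and 14 reads with guide 1 and 5, 20 and 15 reads with guide 2, against 1, 1 and 0 reads in GFPsg. The ratio of reads was 22.8 (6.14 to 191, exact 95% interval, which covers counting error only), so the gene was called higher while it stayed at or under 0.33 CPM. Col3a1 passed the filter only through libraries labelled knockout, so its difference follows in part from the filter. Col2a1, the main cartilage chain, rose 1.78-fold, with means of 0.98 ± 0.35 CPM for guide 1 and 1.06 ± 0.22 CPM for guide 2, against 0.58 ± 0.05 CPM in GFPsg (edgeR adjusted p = 0.00765). The 3 fibrillar chains called lower were Col27a1, Col11a1 and Col11a2. Col27a1, a chain of cartilage and developing tissue, fell by 0.86 ± 0.10 on the log2 scale, to 2.34, 1.86 and 2.44 CPM with guide 1 and 2.37, 2.66 and 2.69 CPM with guide 2, against 4.34, 4.26 and 4.41 CPM in GFPsg (edgeR adjusted p = 1.31e-06). Col11a1 (−1.56 ± 0.48, edgeR adjusted p = 0.0119) and Col11a2 (−0.77 ± 0.28, edgeR adjusted p = 0.0282), type XI chains that sit inside cartilage fibrils, were also called lower, both with overlapping groups and means under 1 CPM. Col11a1 passed the filter only through GFPsg, so its difference follows in part from the filter. The Col11a1 call was lost without GFPsg replicate 2 (adjusted p = 0.0697), and the Col11a2 call without GFPsg replicate 1 (0.137), GFPsg replicate 3 (0.0823) or guide 2 replicate 2 (0.0647) and with library size alone (0.055).

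**Figure D3:**
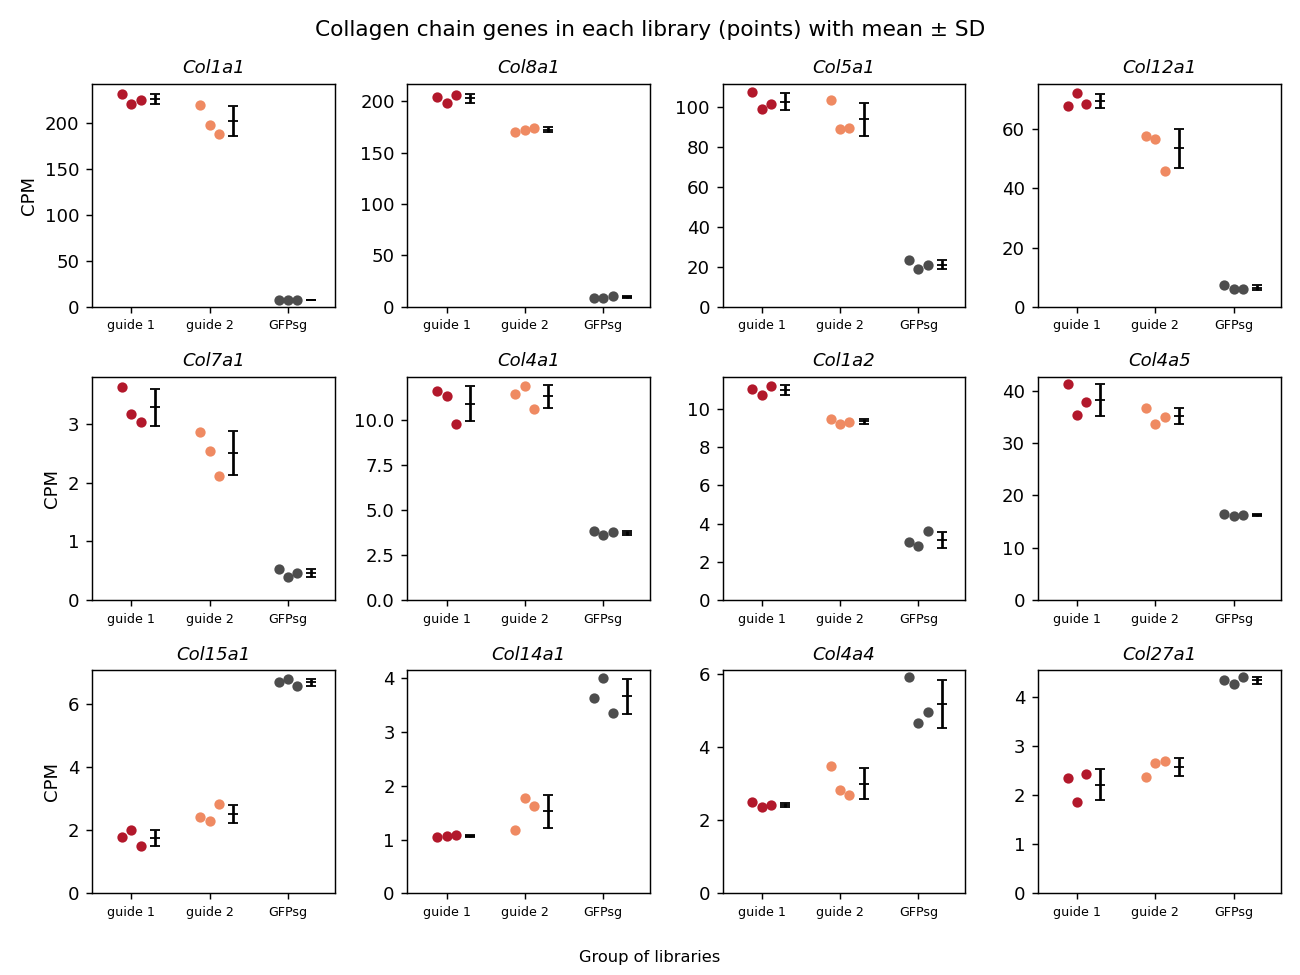
CPM (y axis, each panel on its own scale from 0) of 12 collagen chain genes in each library (points) with guide 1, guide 2 and in GFPsg (x axis), with black bars for mean ± SD of 3 libraries. In the panels from Col1a1 to Col4a5 all 6 libraries labelled knockout lie above GFPsg, and in those of Col15a1, Col14a1, Col4a4 and Col27a1 all 6 lie below.

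Type IV chains, which form the basement membrane network, split within the family. Col4a1 and Col4a2, which join in the trimer found in nearly all basement membranes, rose. Col4a1 (ENSMUSG00000031502, chromosome 8, 11198423 to 11312826) stood at 11.6, 11.3 and 9.76 CPM with guide 1 and 11.4, 11.9 and 10.6 CPM with guide 2, against 3.84, 3.61 and 3.76 CPM in GFPsg, 2.96-fold with no overlap (1.57 ± 0.08; edgeR adjusted p = 2.05e-11). Col4a2 (ENSMUSG00000031503, chromosome 8, 11312805 to 11449287) stood at 7.38, 5.93 and 6.80 CPM with guide 1 and 8.30, 7.45 and 7.49 CPM with guide 2, against 4.46, 3.85 and 3.27 CPM in GFPsg, 1.86-fold with no overlap (0.90 ± 0.10; edgeR adjusted p = 8.12e-07). The annotated starts of this divergent pair lie 21 bases apart and the genes overlap there, so reads at the shared start cannot be told apart without a stated strand setting.

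Col4a5, a chain of the basement membranes of kidney and other epithelia, rose 2.25-fold to 41.3, 35.3 and 37.9 CPM with guide 1 and 36.7, 33.7 and 35.0 CPM with guide 2, against 16.5, 16.1 and 16.2 CPM in GFPsg (1.17 ± 0.05; edgeR adjusted p = 6.15e-12). Its divergent neighbour Col4a6, whose start lies 1309 bases away, had 0 to 4 reads in every library. Col4a4 fell by 0.94 ± 0.10 on the log2 scale, to 2.49, 2.38 and 2.41 CPM with guide 1 and 3.50, 2.84 and 2.69 CPM with guide 2, against 5.93, 4.66 and 4.97 CPM in GFPsg (edgeR adjusted p = 6.58e-07). Col4a3, which starts 72 bases from Col4a4 in the opposite direction and joins it and Col4a5 in the trimer of the glomerular basement membrane, had 9 to 24 reads in every library with overlapping groups (−0.04 ± 0.39; edgeR adjusted p = 0.938). Its locus overlaps C430014B12Rik on the opposite strand, with about 34.1 reads per library, so its reads are uncertain without a strand setting. Whether the exons of these 2 genes overlap was not checked.

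Chain ratios were compared within collagen types, since a heterotrimer needs its chains in a fixed proportion. Of 11 pairs set by the known trimers, 6 had both chains above the filter and were tested by an exact permutation test over libraries (two-sided, 6 against 3), for which 0.0238 is the smallest p. The test takes each library as a separate unit and leaves out which guide it came from. The log2 ratio of Col1a1 to Col1a2 reads was 4.39, 4.36 and 4.33 with guide 1 and 4.53, 4.42 and 4.33 with guide 2, against 1.24, 1.37 and 1.03 in GFPsg. It was higher in 6 of 6 libraries labelled knockout by 3.18 on the log2 scale (exact p = 0.0238, adjusted over 6 pairs 0.0714). Per kb of principal transcript, Col1a1 stood at 18.5 times Col1a2 with guide 1 and 19.4 times with guide 2, against 2.09 times in GFPsg. Over all annotated exons, which for Col1a2 include long alternative ones, these ratios were 38.9, 40.8 and 4.39.

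The log2 ratio of Col4a1 to Col4a2 reads was 0.65, 0.93 and 0.52 with guide 1 and 0.46, 0.67 and 0.50 with guide 2, against −0.22, −0.09 and 0.20 in GFPsg. It was also higher in 6 of 6 libraries, by 0.66 on the log2 scale (exact p = 0.0238, adjusted 0.0714). The ratio of Col9a3 to Col9a2 was higher by 1.10 (exact p = 0.0476, adjusted 0.0952), with 5 of 6 libraries above GFPsg. The ratios Col4a3 to Col4a4 (0.91, exact p = 0.0714, adjusted 0.107), Col11a1 to Col11a2 (−0.87, exact p = 0.31, adjusted 0.371) and Col9a1 to Col9a2 (0.21, exact p = 0.714, adjusted 0.714) did not reach a raw p under 0.05. Over 6 pairs the smallest p could pass an adjusted 0.05 only if 3 or more pairs reached it, so the adjusted values say little about a single ratio.

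**Figure D4:**
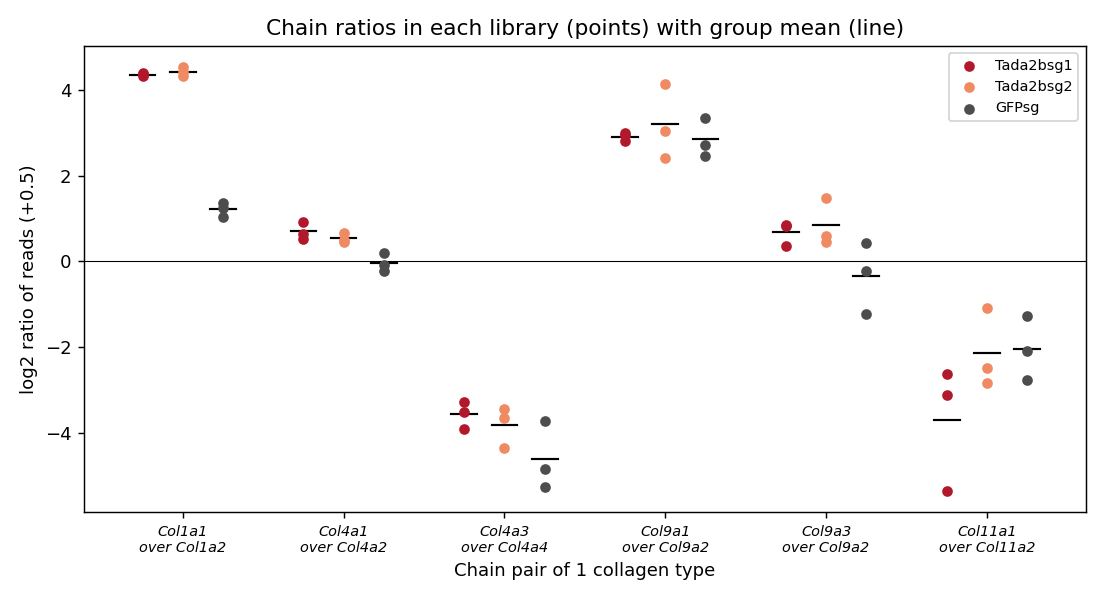
Log2 ratio of reads between the chains of 6 pairs (x axis), with 0.5 reads added to each, in each library (points) of guide 1, guide 2 and GFPsg, and a line at each group mean. The Col1a1 to Col1a2 ratio lies between 4.33 and 4.53 in the libraries labelled knockout and between 1.03 and 1.37 in GFPsg.

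Short chain collagens are types VIII and X, of which type VIII forms hexagonal lattices below endothelia. Col8a1 (ENSMUSG00000068196, chromosome 16, 57624258 to 57754737) stood at 204, 198 and 206 CPM with guide 1 and 170, 172 and 174 CPM with guide 2, against 8.47, 8.73 and 10.4 CPM in GFPsg. This 20.3-fold rise (4.35 ± 0.06; edgeR adjusted p = 2.79e-18) left the groups far apart. Col8a2, the other type VIII chain, had 0 to 6 reads in every library. Col10a1, the chain of hypertrophic cartilage, fell by 0.59 ± 0.15 on the log2 scale, to 1.29, 0.94 and 0.92 CPM with guide 1 and 1.34, 1.33 and 1.49 CPM with guide 2, against 1.64, 1.78 and 2.03 CPM in GFPsg (edgeR adjusted p = 0.0027), and with guide 2 alone it was not called (0.0724). The span of Col10a1 overlaps that of Nt5dc1 on the opposite strand, a gene with about 3414 reads per library. Whether their exons overlap was not checked, so without a stated strand setting their reads may not be told apart.

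Col7a1 encodes the anchoring fibrils that tie the epidermal basement membrane to the dermis (ENSMUSG00000025650, chromosome 9, 108953586 to 108984875). It stood at 3.63, 3.17 and 3.03 CPM with guide 1 and 2.85, 2.54 and 2.11 CPM with guide 2, against 0.53, 0.39 and 0.46 CPM in GFPsg. Its groups did not overlap, and it rose 6.19-fold (2.63 ± 0.16; edgeR adjusted p = 4.53e-10).

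FACIT collagens, which coat the surface of fibrils without forming them, were tested for 7 of 9 genes, of which 2 rose, 4 fell and 1 was not called. Col12a1 binds type I fibrils under tension (ENSMUSG00000032332, chromosome 9, 79598991 to 79718831). It stood at 67.9, 72.1 and 68.4 CPM with guide 1 and 57.8, 56.8 and 45.9 CPM with guide 2, against 7.39, 5.89 and 6.13 CPM in GFPsg, 9.40-fold with no overlap (3.23 ± 0.09; edgeR adjusted p = 3.73e-15). Col16a1, a minor chain that also lies beside integrins at the cell surface, rose 2.18-fold to 14.7, 13.2 and 14.4 CPM with guide 1 and 14.2, 12.4 and 12.8 CPM with guide 2, against 6.86, 5.58 and 6.28 CPM in GFPsg (edgeR adjusted p = 1.14e-09).

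Col14a1, the closest relative of Col12a1 and like it a coat of type I fibrils, went the other way. It fell by 1.52 ± 0.13 on the log2 scale, to 1.05, 1.06 and 1.09 CPM with guide 1 and 1.17, 1.77 and 1.62 CPM with guide 2, against 3.62, 3.99 and 3.34 CPM in GFPsg (edgeR adjusted p = 2.38e-08). Its locus overlaps Gm49257 and Gm18787 on the opposite strand. They had about 55.6 and 83.4 reads per library and log2 changes of 1.16 and 1.90, and their reads may not be told apart from its own without a strand setting. Whether their exons overlap those of Col14a1 was not checked. Col20a1 fell by 1.11 ± 0.18, to 0.70, 0.59 and 0.69 CPM with guide 1 and 0.78, 0.59 and 0.98 CPM with guide 2, against 1.77, 1.21 and 1.65 CPM in GFPsg (edgeR adjusted p = 7.63e-05). Col20a1 overlaps BX649560.1 on the same strand, so its reads are uncertain. BX649560.1 had about 172 reads per library, against about 73.1 for Col20a1, and a log2 change of −0.44. Among the type IX chains, which coat cartilage fibrils, Col9a1 fell by 0.60 ± 0.11, to 2.96, 2.82 and 2.45 CPM with guide 1 and 2.62, 3.51 and 3.64 CPM with guide 2, against 4.30, 4.53 and 4.74 CPM in GFPsg (edgeR adjusted p = 1.6e-04). Col9a2 was called lower at means under 1 CPM (−0.83, edgeR adjusted p = 0.0238), a call lost without GFPsg replicate 1 (0.0536) or GFPsg replicate 3 (0.19). Col9a3 was not called (0.28, edgeR adjusted p = 0.347).

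The multiplexins are basement membrane collagens whose ends can be cut to soluble fragments, and both were tested. Col15a1 (ENSMUSG00000028339, chromosome 4, 47208161 to 47313167) fell by 1.67 ± 0.10 on the log2 scale, the lowest change of all 30 tested members. It stood at 1.79, 2.00 and 1.5 CPM with guide 1 and 2.42, 2.31 and 2.85 CPM with guide 2, against 6.71, 6.81 and 6.57 CPM in GFPsg (edgeR adjusted p = 1.39e-10). Every library labelled knockout was below every GFPsg library. Col18a1, the source of endostatin, was called higher at 0.48 ± 0.07 CPM with guide 1 and 0.59 ± 0.16 CPM with guide 2, against 0.13 ± 0.05 CPM in GFPsg (edgeR adjusted p = 1.02e-04). Col18a1 passed the filter only through libraries labelled knockout, so its difference follows in part from the filter. Its locus overlaps Slc19a1 on the opposite strand, which had about 1297 reads per library and a log2 change of 0.32. Whether their exons overlap was not checked, so without a strand setting their reads may not be told apart.

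Beaded filament and transmembrane chains were scarce. Type VI collagen needs Col6a1, Col6a2 and a longer chain such as Col6a3, and of these Col6a2 had 0 reads in every library and Col6a3 had 0 to 7. Col6a1 was called lower at 0.17 ± 0.06 CPM with guide 1 and 0.24 ± 0.02 CPM with guide 2, against 0.39 ± 0.12 CPM in GFPsg (−0.93, edgeR adjusted p = 0.0183), a call lost without GFPsg replicate 1 (0.135) or GFPsg replicate 3 (0.0578). Col17a1, the hemidesmosome collagen of skin, rose 2.96-fold, with means of 0.70 ± 0.15 CPM for guide 1 and 0.57 ± 0.15 CPM for guide 2, against 0.21 ± 0.03 CPM in GFPsg (edgeR adjusted p = 1.73e-04). Col23a1, another membrane-spanning chain, was not called (−0.74, edgeR adjusted p = 0.0849), though it was without GFPsg replicate 2 (0.0456).

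The guides were then set side by side. Of the 26 members called against GFPsg over both guides, 21 were called with each guide and in the same direction. The same count over all 9141 genes called was not made, so the 21 are not read as a trait of the members. The other 5 were all called lower over both guides. Col6a1 (edgeR adjusted p = 0.145), Col9a2 (0.0652), Col10a1 (0.0724) and Col11a1 (0.158) were not called with guide 2, and Col11a2 was not called with guide 1 (0.0946). With guide 1, 15 members were called higher and 10 lower, where 48.4% of all genes tested were called, 23.8% higher and 24.5% lower. Changes of 2-fold or more were called for 12 members upward and 6 downward, against 7.05% and 4.97% of all genes. With guide 2, 16 were called higher and 7 lower, where 45.1% of all genes tested were called, 22.1% higher and 23.0% lower, and at 2-fold or more 14 were called higher and 2 lower, against 6.4% and 3.4% of all genes. Col6a5, among the 16 and the 14, passed the filter only through guide 2, so its call follows in part from the filter. Both comparisons share the GFPsg libraries. The change was smaller with guide 2 for 20 of the 26 members (76.9%) and for 68.2% of all genes called.

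The test of the difference, guide 2 against guide 1, called 2 members higher and 2 lower, where 3.68% of all genes tested were called, 2.66% higher and 1.02% lower. Only Col6a5 among them reached 2-fold, against 0.0837% of all genes upward and 0.0223% downward. It passed the filter only through guide 2, so its call follows in part from the filter and cannot be weighed against those shares. Col8a1 was lower with guide 2 by 0.24 on the log2 scale (edgeR adjusted p = 0.0113), a call lost without guide 1 replicate 3 (0.0712) or guide 2 replicate 2 (0.0516), and Col12a1 was lower by 0.38 (adjusted p = 0.00827), a call lost without guide 1 replicate 2 (0.063). Col15a1 was higher with guide 2 by 0.52 (edgeR adjusted p = 0.0302). That call was lost without guide 1 replicate 1 (0.0704), guide 1 replicate 3 (0.177) or guide 2 replicate 3 (0.089), and in a fit of the 2 guides alone (0.0717). For these 3 genes the value with guide 2 lay between that with guide 1 and that in GFPsg. The melanocyte markers Pmel, Tyr, Tyrp1 and Dct were also higher with guide 2 than with guide 1, as were all 7 of that list.

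Col6a5, a type VI chain that can take the place of Col6a3 in skin and other tissues (ENSMUSG00000091345, chromosome 9, 105856078 to 105960643), had another pattern. It was counted in 29, 12 and 11 reads with guide 2, against 0, 0 and 1 reads with guide 1 and 0, 0 and 0 reads in GFPsg. The ratio of guide 2 to guide 1 reads was 53.4 (9.17 to 2150, exact 95% interval for counting error; edgeR adjusted p = 0.00353), and guide 2 was at least 16.3-fold higher than GFPsg against a floor of 3 reads over that group. Col6a5 passed the filter only through guide 2, so its differences from guide 1 and from GFPsg follow in part from the filter. Over both guides Col6a5 was not called with edgeR (adjusted p = 0.0697) but was with DESeq2 (0.0253). Its neighbour Col6a6 was too low to be tested, with 10, 2 and 1 reads with guide 2 and 3, 1 and 2 reads with guide 1, against 0 in each GFPsg library. The other members below the filter were Col6a4, Col19a1, Col22a1, Col24a1, Col25a1, Col26a1 and Col28a1, the last with 3, 4 and 1 reads with guide 2 and 0 reads in all libraries of guide 1 and GFPsg.

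Genes that make, cut and bind collagen were counted from lists beside the chains, in the comparison of both guides with GFPsg. Over all genes tested, 51.0% were called in that comparison, 24.7% higher and 26.3% lower. Among 24 genes of chain modification, folding and export 22 were tested, 11 were called higher, 6 lower and 5 were not called, with a median log2 change of 0.06. Plod3, a lysyl hydroxylase that also adds sugars, rose by 0.74, the prolyl hydroxylase gene P4ha2 by 0.72 and the galactosyltransferase gene Colgalt1 by 0.45 on the log2 scale, while the lysyl hydroxylase gene Plod1 fell by 0.43. Colgalt2, a paralog of Colgalt1, fell by 2.07, the only change of 2-fold or more among the genes called in this list. The edgeR adjusted p of Colgalt2 was 8.1e-08, and those of the other 4 were 6.14e-08 or below. Among 13 genes of propeptide cleavage and crosslinking 9 were tested, with 7 called higher and 2 lower and a median of 2.14. Of these, Loxl1, called higher, passed the filter only through libraries labelled knockout and Tll1, called lower, only through GFPsg. Their differences follow in part from the filter. Loxl2, a lysyl oxidase, stood at 31.6 ± 0.85 CPM with guide 1 and 29.1 ± 0.87 CPM with guide 2, against 5.24 ± 0.25 CPM in GFPsg (mean ± SD, n = 3 each; log2 change 2.54 ± 0.06; edgeR adjusted p = 2.84e-16). Pcolce, which speeds the removal of the C-propeptide, rose by 2.14, its relative Pcolce2 by 2.44 and Bmp1, the C-propeptidase, by 1.56, each with an edgeR adjusted p of 4.95e-13 or below. Of the N-propeptidases of fibrillar collagen, Adamts2 was under 10 reads in every library, Adamts3 had 0 reads in every library, and Adamts14 rose 3.18-fold, with means of 18.0 ± 0.99 CPM for guide 1 and 18.3 ± 2.25 CPM for guide 2, against 5.69 ± 1.13 CPM in GFPsg (edgeR adjusted p = 3.39e-10). Lox was under 10 reads in every library.

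Among 10 collagen receptor genes 8 were tested, 3 were called higher and 5 were not called, with a median of −0.01. For this list and those that follow, the shares over all genes tested were again 24.7% higher and 26.3% lower. The receptor kinase gene Ddr1 rose by 0.75, Itgb1, the shared beta chain of the collagen integrins, by 0.63 and Itga1 by 0.51 on the log2 scale, and Ddr2, the kinase for fibrillar collagen, was not called (−0.08, edgeR adjusted p = 0.0646). Of 9 degradation genes 5 were tested, with Mmp2, a gelatinase, higher (1.08), Mmp15 (−1.25) and Ctsk, a collagen-cleaving cathepsin, lower (−1.66) and Mmp14 not called (0.07, edgeR adjusted p = 0.135). Ctsk was counted in 9, 9 and 13 reads with guide 1 and 7, 5 and 2 reads with guide 2, against 15, 20 and 27 reads in GFPsg, and passed the filter only through GFPsg, so its difference too follows in part from the filter. Of 8 fibril partners 4 were tested. Fn1, which guides collagen assembly, rose by 2.37, the collagen chaperone Sparc by 1.05 and Bgn by 2.98, while Prelp fell by 0.93. Bgn was counted in 10, 16 and 11 reads with guide 1 and 24, 4 and 8 reads with guide 2, against 1, 0 and 3 reads in GFPsg, and passed the filter only through libraries labelled knockout, so its difference follows in part from the filter.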

How the data were processed

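RNA was profiled in 9 libraries, 3 per group by their titles. Raw counts of reads per gene were deposited by the authors with no normalization, as the values show. Processing used bcl2fastq, HISAT2, HTSeq and the mm10 build, per the submitters' processing notes. Their versions, annotation and strand setting are not given in the sources used here. Per the labels the library kit was stranded. GENCODE M21 gave symbols, coordinates and lengths, and 54723 of 54752 identifiers matched. Lengths are of the longest principal coding transcript.

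Counts were analysed with edgeR 4.0.16 in R 4.3.3, with filterByExpr at a count minimum of 10, TMM scaling and the quasi-likelihood F test on 1 fit of 3 groups, adjusted by Benjamini-Hochberg over 17931 genes. CPM use TMM-scaled library sizes. Standard errors are the change over the square root of F. The common coefficient of variation was 0.0526. Library totals ran from 70.6 M to 76.9 M reads, so for a given gene counting error differs little between libraries through depth. It grows as the reads of a member fall and is largest for members under about 50 reads. Alternatives were library size alone, RLE, DESeq2 1.42.0, other filters, a replicate block, fits of 2 groups and each library left out. The fits were tested on simulated data. Permutation tests used SciPy 1.17.1.

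Every member was to be accounted for, and up to 4 genes per list with the lowest p were named; list genes named because they were near 0 or ran against a relative, Colgalt2 and Adamts14 among them, were chosen after their values were seen. Members and lists were chosen with earlier results of these data known.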

Additional observations from a re-analysis of the deposited data

Results flagged for a closer look

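In 4 members the effects of the guides against the same GFPsg libraries differed by a test of the difference itself (edgeR, guide 2 against guide 1). The log2 difference was 5.27 for Col6a5, −0.24 for Col8a1, −0.38 for Col12a1 and 0.52 for Col15a1. Col6a5 passed the filter on low counts only through guide 2, so its difference follows in part from the filter. Over the other settings the adjusted p ran from 9.22e-06 to 0.0313 for Col6a5 (14 settings with a value, since DESeq2 gave none and the gene was not tested at a count minimum of 50), from 2.88e-05 to 0.0712 for Col8a1, from 1.36e-10 to 0.063 for Col12a1 and from 0.00506 to 0.177 for Col15a1 (16 settings each).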

How the results depend on the processing

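Of 30 tested members 23 kept their direction and their side of the threshold under all 15 other settings of the comparison with GFPsg. The Col4a3 change, not called, reversed to 0.045 with library size alone, and ranged from −0.266 to 0.43 with a library left out, being above 0 without GFPsg replicate 2 (0.43), guide 1 replicate 3 (0.049) or guide 2 replicate 3 (0.104). Col6a5 was called with DESeq2 (3.66, adjusted p = 0.0253). With a library left out, 15 members were called higher and 8 to 11 lower over both guides, 14 to 15 and 8 to 10 with guide 1, 15 to 16 and 6 to 8 with guide 2, and 1 to 3 and 1 to 3 between the guides, where 335 to 808 of all genes were called. Between the guides 1 member was called higher with DESeq2, with a count minimum of 50 and in the fit of 2 groups. All genes called between the guides were 660, or 1070 with no filter. With the replicate number as a block they were 1705, and 4 members were called lower. In their deviations from group means, same-numbered libraries correlated at −0.01 to 0.10 (9 pairs), and libraries of unlike number at −0.088 to 0.041. Of the libraries, 9 of 9 correlated best with a library of their own number. The main fit leaves the number out, and whether it marks a shared replicate effect was not tested. The block changed no call of a member against GFPsg over both guides. Without each library in turn the log2 ratio differences ranged from 3.09 to 3.26 (Col1a1 to Col1a2) and 0.57 to 0.78 (Col4a1 to Col4a2), with exact p at 0.0714, the smallest possible, where a GFPsg library was left out, from 0.67 to 1.48 (Col9a3 to Col9a2) and from −0.007 to 0.466 (Col9a1 to Col9a2, which reversed without guide 2 replicate 2). The summed ratio of 6.17 was 5.82 on TMM-scaled sizes, 4.48 without Col1a1 and, in a setting chosen after seeing the data, 1.61 without the 4 members with the most reads. Members with few reads, above all those under about 50, are limited by depth. The cause of these shifts was not tested.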
